A study of Mus musculus with 8 samples.

Results

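The genes described here are 10 known targets of the hypoxia-inducible factors (HIF), chosen by name: Vegfa, Slc2a1, Pgk1, Ldha, Hk2, Car9, Adm, Bnip3, Ndrg1 and Egln3. All 10 were found among the 24421 genes of the raw count table and among the 19823 genes of the normalized table, and all 10 were among the 14468 genes with enough counts to be tested. They were measured by bulk RNA-seq in MC38 tumors, which grow from a mouse colon adenocarcinoma cell line injected under the skin. All 8 tumors grew in female C57BL/6 (B6) Kaede mice aged 9 weeks at injection, which express Kaede, a protein that turns from green to red fluorescence under violet light. On day 10, at a diameter of about 5 mm, 4 tumors received violet light of 405 nm during 3 min (photoconverted), and 4 tumors were left unexposed (control). All were taken 5 h after the exposure, with 4 mice in each group. The comparison asks whether photoconversion itself changed the tumor transcriptome. Both groups carry Kaede, the cell line is a single transplanted line, and the control tumors had no intervention, so the light and the handling that goes with it cannot be told apart.

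When oxygen is short, the prolyl hydroxylases that mark HIF-alpha for destruction through the von Hippel-Lindau protein lose activity, and the stabilized factor pairs with ARNT and binds the core sequence of the hypoxia response element. Its targets raise glucose uptake and glycolysis, export acid, remove mitochondria and recruit blood vessels. In fast-growing tumors these genes are known to be high in poorly perfused areas, and many of them also respond to signals other than oxygen.

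The deposited counts summed to between 12576615 and 35844417 per tumor. Rn45s, the precursor of ribosomal RNA, took 2.70% to 9.65% of the counts in 5 libraries and 21.9% in photoconverted tumor 4, 35.7% in control tumor 2 and 23.2% in control tumor 4. These 3 libraries also had the lowest totals. Of 8 neutrophil markers and 12 skeletal muscle markers, all had a log2 fold change above 0 in photoconverted tumors. Of these, 6 and 2 had an unadjusted p under 0.05 in edgeR, as did 1.65% of all genes tested with a higher level. All tested adipocyte, keratinocyte, erythroid and epithelial markers were above 0 too. The 7 epithelial markers chosen for a carcinoma were nearly absent, with a summed level of 3.42 to 6.16 CPM in the 8 tumors, and the highest of them in any tumor was Cdh1 at 3.63 CPM. Endothelial markers summed to 128 to 205 CPM in the photoconverted group and 128 to 183 CPM in control tumors. CPM here are counts of a gene divided by the TMM-scaled library size and set to a common total, as in edgeR.

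The sequences just upstream of the start site are shown for 5 of the 10 genes. These are Ldha and Hk2, which varied together across tumors, Bnip3 and Egln3, which did so as well, and Adm, which differed most between the groups. Slc2a1, Pgk1 and Ndrg1, which varied together about as closely or more closely, are not shown, and no window was found for Ndrg1. Each sequence shown is the RefSeq sequence of GRCm38.p6, printed from 5′ to 3′ on the strand of the gene. Capitals mark ACGTG or GCGTG, the core of the hypoxia response element, on either strand (read as CACGT or CACGC on the other strand). A CACGTG palindrome counts once on each strand.
Ldha, chr7:46845554-46845803, plus strand: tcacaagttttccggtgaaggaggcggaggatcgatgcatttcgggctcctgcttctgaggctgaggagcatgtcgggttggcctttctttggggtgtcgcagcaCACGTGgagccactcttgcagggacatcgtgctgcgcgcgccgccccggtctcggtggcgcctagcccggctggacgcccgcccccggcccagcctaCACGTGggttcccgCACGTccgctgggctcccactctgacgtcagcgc
Hk2, chr6:82774455-82774704, minus strand: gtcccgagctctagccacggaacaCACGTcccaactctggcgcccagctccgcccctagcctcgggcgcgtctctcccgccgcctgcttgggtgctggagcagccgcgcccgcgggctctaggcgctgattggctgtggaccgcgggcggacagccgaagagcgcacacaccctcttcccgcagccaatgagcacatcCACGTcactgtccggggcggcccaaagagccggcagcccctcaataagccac
Bnip3, chr7:138909520-138909756, minus strand: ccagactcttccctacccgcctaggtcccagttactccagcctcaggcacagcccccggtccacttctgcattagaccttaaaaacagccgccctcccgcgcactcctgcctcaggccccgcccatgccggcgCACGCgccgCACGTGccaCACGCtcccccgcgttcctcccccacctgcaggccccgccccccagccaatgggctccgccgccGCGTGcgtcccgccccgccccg
Egln3, chr12:54203875-54204124, minus strand: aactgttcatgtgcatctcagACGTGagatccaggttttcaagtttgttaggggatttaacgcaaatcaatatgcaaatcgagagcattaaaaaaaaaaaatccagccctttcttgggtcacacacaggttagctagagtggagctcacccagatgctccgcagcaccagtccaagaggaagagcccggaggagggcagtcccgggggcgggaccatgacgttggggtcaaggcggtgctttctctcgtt
Adm, chr7:110627407-110627656, plus strand: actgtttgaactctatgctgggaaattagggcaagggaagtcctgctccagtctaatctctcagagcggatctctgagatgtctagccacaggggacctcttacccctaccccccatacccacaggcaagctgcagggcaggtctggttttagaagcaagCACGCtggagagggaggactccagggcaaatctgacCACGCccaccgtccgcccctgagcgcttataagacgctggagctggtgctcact
The Ldha stretch held 5 matches, with palindromes that begin 145 and 48 bases before the start. The Bnip3 stretch also held 5, whereas Hk2 and Adm held 2 each and Egln3 held 1, which begins 229 bases before the start. A window was found for 9 of the 10 genes (Ndrg1 had none), and all 9 held at least 1 match in at least 1 window of 250 bases. Vegfa and Ldha had more than 1 window. For Vegfa, chr17:46032378-46032627 held 0 matches and chr17:46025164-46025413 held 2. For Ldha, chr7:46846832-46847081, not shown, held 1. A match was found in 38.6% of all 32851 promoter windows. Counting any window of a gene, it was found for 41.5% of the 27025 genes with a window and 59.3% of the 10642 genes tested here with one. These letters describe the sequence and do not show that a factor bound there.

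No gene of the 10 differed between photoconverted and control tumors at an adjusted p under 0.05 (0 of 10 called, against 0% of all genes tested, quasi-likelihood test of edgeR, p adjusted by Benjamini-Hochberg over all genes). Each had an adjusted p of 0.999. Adm had a log2 fold change above 0, and the other 9 genes had one below 0, as did 53.2% of all genes tested. The median log2 fold change of the 10 genes was -0.20, against -0.01 for all genes tested. Car9 and Adm had an unadjusted p under 0.05, as did 2.23% of all genes (322 genes). DESeq2's Wald test also called 0 of the 10 genes, with 0.141% of all genes called, and 2 of the 10 had an unadjusted p under 0.05, as did 569 genes in all. For 0 of the 10 genes did the CPM of the groups lie apart without overlap, as they did for 1.33% of all genes tested. With bulk RNA, fewer cells of a type and less RNA per cell cannot be told apart in any of these values.

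**Figure D1:**
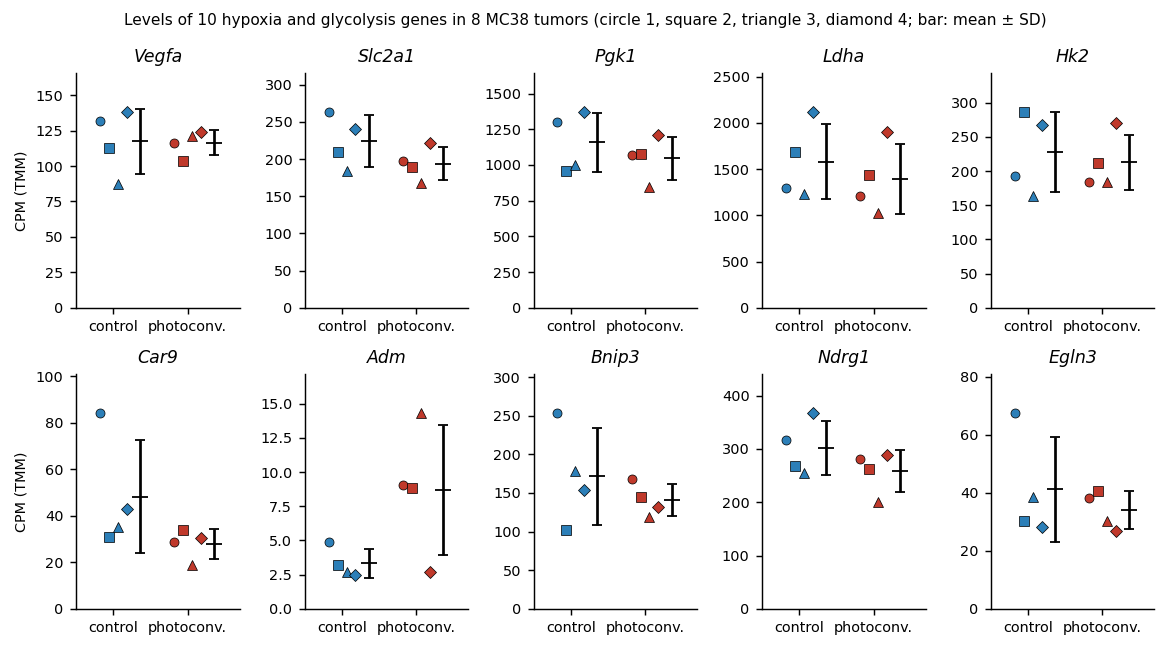
Level in CPM (TMM) of each of the 10 genes in 4 control (blue) and 4 photoconverted (red) MC38 tumors, with a symbol for each replicate number and a bar for the mean ± SD (n = 4). The groups overlap for all 10 genes, and Car9, Bnip3 and Egln3 each have their highest value in control tumor 1.

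Per kilobase of exon, the genes spanned a wide range of levels. Pgk1 was at 491 ± 78.8 and Ldha at 449 ± 114 CPM per kilobase (mean ± SD over 8 tumors), and their order did not hold beyond the spread, since Pgk1 was higher in 5 of 8 tumors. Bnip3 (69.0 ± 20.5) and Slc2a1 (59.6 ± 9.03) followed, with Bnip3 higher in 5 of 8 tumors. Ndrg1 was at 42.5 ± 7.29 and Hk2 at 36.9 ± 7.89 CPM per kilobase, also with the first higher in 5 of 8. Vegfa was at 27.3 ± 3.76 CPM per kilobase and was higher than Car9 (16.5 ± 8.58) in 7 of 8 tumors. Car9 and Egln3 (14.1 ± 4.94) were not separated, with Car9 higher in 5 of 8. Adm had the lowest mean, at 3.71 ± 2.65 CPM per kilobase. Ldha lay above Bnip3, Slc2a1 above Ndrg1, Hk2 above Vegfa and Egln3 above Adm in 8 of 8 tumors. Reads of Pgk1 and Ldha may be shared with near-identical processed pseudogenes, so the absolute levels of these genes are uncertain.

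The glucose transporter gene Slc2a1 (GLUT1; chr4:119108711-119137983, mm10) brings glucose into the cell. Its level was 197, 189, 167 and 221 CPM in photoconverted tumors 1 to 4 and 263, 209, 183 and 241 CPM in control tumors 1 to 4. The ranges overlapped, although the photoconverted tumor was the lower in each of the 4 same-numbered pairs. On the log2 scale the difference was -0.21 ± 0.15 (SE; 95% interval -0.54 to 0.12; exact permutation test over tumors, p = 0.200, where 4 against 4 allow no p below 0.0286), and it was -0.13 without control tumor 1.

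Hk2 (chr6:82725025-82774454) encodes the hexokinase that traps glucose in the cell. Photoconverted tumors had 184, 212, 184 and 270.1 CPM, and control tumors had 193, 286, 164 and 267 CPM. The high values in both groups came from the 3 libraries with a large Rn45s share, and all photoconverted values lay inside the range of the controls. Its log2 fold change was -0.10 ± 0.21 (SE; 95% interval -0.56 to 0.37; exact permutation p = 0.800).

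Pgk1 (chrX:106187100-106203699) encodes phosphoglycerate kinase, which makes ATP in the lower part of glycolysis. It was at 1068, 1074, 844 and 1207 CPM in photoconverted tumors, and at 1298, 960.0, 1003 and 1368 CPM in control tumors. The photoconverted tumor was the lower in 3 of 4 pairs, and pair 2 ran the other way. The difference was -0.14 ± 0.17 on the log2 scale (SE; 95% interval -0.54 to 0.25; exact permutation p = 0.429). It was between -0.05 (without photoconverted tumor 3 or control tumor 4) and -0.22 (without control tumor 2 or photoconverted tumor 4) when a tumor was left out, and -0.08 without control tumor 1.

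Ldha (chr7:46841475-46855627) encodes the subunit of lactate dehydrogenase that turns pyruvate into lactate, and its upstream sequence held the palindromes shown above. It was measured at 1214, 1439, 1022 and 1898 CPM in the photoconverted group and at 1296, 1682, 1234 and 2114 CPM in control tumors. The spread between tumors of a group was far wider than the gap within a pair, in which the photoconverted tumor was the lower by 0.09, 0.23, 0.27 and 0.16 (log2). Between the groups the log2 fold change was -0.18 ± 0.24 (SE; 95% interval -0.73 to 0.36; exact permutation p = 0.486). It ran from -0.37 without photoconverted tumor 4 to -0.01 without control tumor 4.

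Car9 (chr4:43506966-43513729) encodes a membrane carbonic anhydrase that buffers the acid made by hypoxic cells and is widely used as a hypoxia marker. Photoconverted tumors had 28.7, 33.8, 18.9 and 30.6 CPM. Control tumors had 84.1, 30.7, 35.3 and 42.9 CPM. Control tumor 1 was far above the others, and photoconverted tumor 2 lay above control tumor 2, so that the groups overlapped. The mean was 28.0 ± 6.43 CPM against 48.3 ± 24.4 CPM (SD, n = 4 each), a fold of 0.578 (95% interval 0.349 to 0.956). The unadjusted p was 0.0359 in edgeR and the exact permutation p was 0.0571. Without control tumor 1 the log2 fold change of -0.79 ± 0.32 (SE) became -0.38.

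Bnip3 (chr7:138890836-138909519) encodes a mitochondrial protein that takes part in the removal of mitochondria by autophagy. The 4 photoconverted tumors had 168, 145, 119 and 132 CPM, and the control tumors had 253, 102, 178 and 153 CPM. As for Car9, control tumor 1 was the highest and pair 2 ran the other way. Bnip3 had a log2 fold change of -0.29 ± 0.25 (SE; 95% interval -0.85 to 0.27; exact permutation p = 0.486), and it was -0.04 without control tumor 1 and -0.47 without control tumor 2.

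Egln3 (chr12:54178981-54203860) encodes PHD3, a prolyl hydroxylase that is itself induced by HIF and acts back on it. Levels were 38.3, 40.6, 30.4 and 26.7 CPM in the photoconverted group and 67.4, 30.3, 38.6 and 28.3 CPM in control tumors. Control tumor 1 again stood highest, and the remaining 7 tumors ran from 26.7 to 40.6 CPM. The log2 fold change of -0.28 ± 0.28 (SE; 95% interval -0.91 to 0.35; exact permutation p = 0.571) turned to 0.07 without that tumor.

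Ndrg1 (chr15:66929318-66969640) encodes a stress-induced cytoplasmic protein that is a common member of hypoxia signatures. Its values were 281, 263, 201 and 289 CPM in the photoconverted group and 316, 269, 255 and 367 CPM in control tumors. The photoconverted tumor was the lower in 4 of 4 pairs, by a small step in pair 2 (-0.03 on the log2 scale). For Ndrg1 the log2 fold change was -0.22 ± 0.16 (SE; 95% interval -0.59 to 0.15; exact permutation p = 0.286), and it was -0.12 without control tumor 4 and also without photoconverted tumor 3. With Slc2a1 and Ldha this made 3 of the 10 genes lower in 4 of 4 pairs, as were 7.18% of all genes tested, and 4 pairs allow no exact sign-flip p below 0.125.

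Of the secreted factors, Vegfa (chr17:46016993-46032369) encodes the main growth factor of blood vessels. It was at 116, 104, 121 and 124 CPM in the photoconverted group and at 132, 112, 87.1 and 138 CPM in control tumors. All photoconverted values lay inside the range of the controls. The log2 fold change was -0.01 ± 0.15 (SE), and its 95% interval of -0.36 to 0.33 corresponds to a fold of 0.779 to 1.26 (exact permutation p = 0.971).

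Adm (chr7:110627661-110629820) encodes adrenomedullin, a peptide that widens vessels. The raw counts were low, at 361, 279, 363 and 39 in photoconverted tumors and 171, 30, 76 and 41 in control tumors. In CPM these were 9.03, 8.81, 14.3 and 2.67 against 4.88, 3.21, 2.70 and 2.50. Photoconverted tumors 1 to 3 lay above every control tumor, and photoconverted tumor 4 lay within the control range. The fold was 2.61 (95% interval 1.30 to 5.25), or 1.38 ± 0.45 on the log2 scale (SE), with an unadjusted p of 0.0126 in edgeR that ranked 76 among the genes tested. The exact permutation p was 0.114. Adm was the 1 gene of the 10 that was higher in 4 of 4 pairs (by 0.88, 1.43, 2.37 and 0.09), as were 7.2% of all genes tested.

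**Figure D2:**
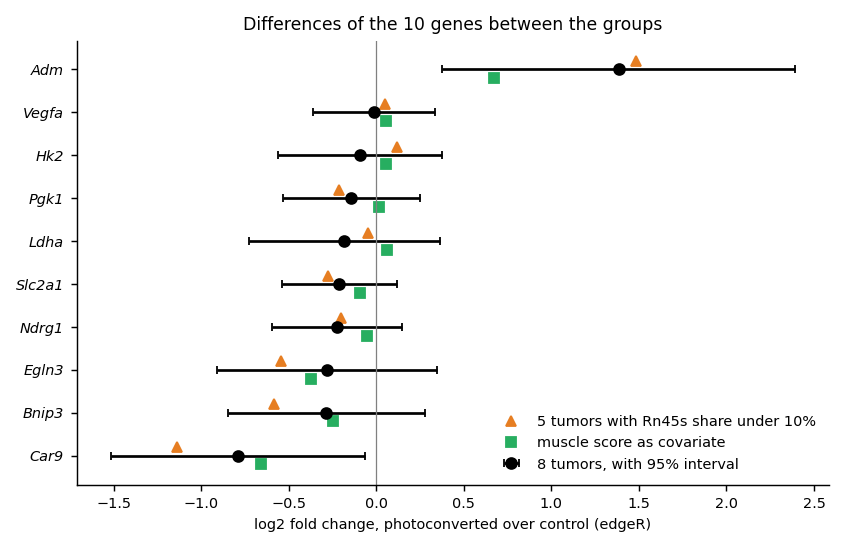
Log2 fold change of each gene, photoconverted over control, in edgeR with its 95% interval (black, 8 tumors), in the 5 tumors below 10% of Rn45s (orange) and with a skeletal muscle score as a covariate (green). The interval lies away from 0 for Adm and Car9 before adjustment. Adm is at 1.38 without and 0.67 with the muscle covariate, which cannot be told apart from the group.

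Markers of other cell types were set beside Adm. The 8 neutrophil markers summed to 109, 125, 163 and 50.6 CPM in the photoconverted group and to 70.9, 46.1, 60.4 and 40.8 CPM in control tumors. The 12 skeletal muscle markers summed to 504, 855, 1698 and 211 CPM and to 363, 436, 496 and 209 CPM. None of these markers was at 0 in all tumors. Both sums were highest in photoconverted tumor 3, which also had the highest Adm, and lowest within the photoconverted group in tumor 4. With a skeletal muscle score as a covariate the log2 fold change of Adm was 0.67 ± 0.34 (SE). That of Car9 was then -0.66, that of Bnip3 -0.25 and that of Egln3 -0.37. Slc2a1 was at -0.09 and Ndrg1 at -0.05, and Vegfa, Pgk1, Ldha and Hk2 lay between 0.01 and 0.06. Within the controls, control tumor 1 had the highest Adm and a muscle sum below those of control tumors 2 and 3. Control tumor 4 was lowest of that group in both. Adipocyte markers (6 of 6 tested above 0) summed to 26.0, 49.9, 74.9 and 20.4 CPM under photoconversion and 19.3, 29.3, 40.1 and 19.0 CPM in the controls, and so were also highest in photoconverted tumor 3. Endothelial markers were highest (205 CPM) and lowest (128 CPM) in those same photoconverted tumors 3 and 4. All 5 tested keratinocyte markers and all 5 tested erythroid markers had a log2 fold change above 0 as well. Of the erythroid markers, Hba-a1 and Hba-a2 had the same values in each tumor. The erythroid sum was highest in control tumor 2 (1810 CPM, against 1761 CPM in photoconverted tumor 3). The keratinocyte sum was highest in photoconverted tumor 2 (28.4 CPM). The part of the neutrophil, adipocyte, endothelial, keratinocyte and erythroid markers in these values was not tested.

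**Figure D3:**
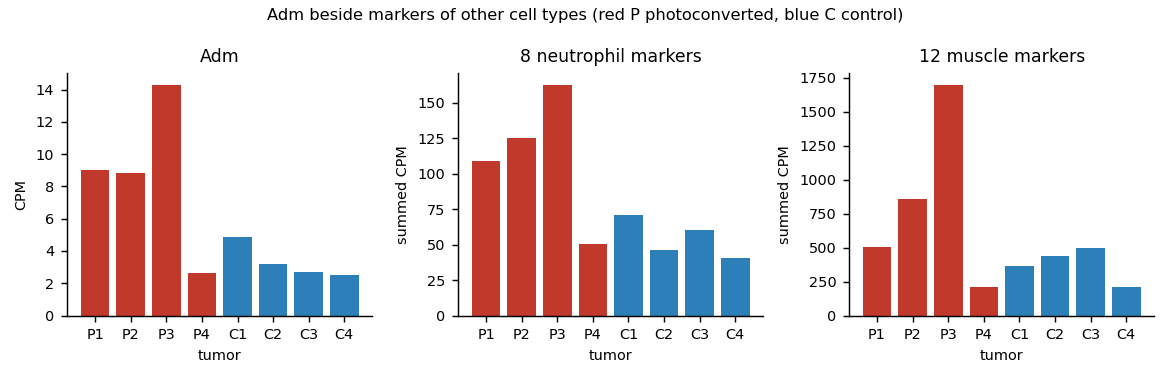
Adm level (CPM) beside the summed CPM of 8 neutrophil and 12 skeletal muscle markers in each photoconverted (P, red) and control (C, blue) tumor. All 3 values are highest in photoconverted tumor 3, and photoconverted tumor 4 lies near the control tumors in each.

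By Rn45s share, 3 of the 10 genes lay apart without overlap between the libraries above and below 10%, as did 44.4% of all genes tested, so the 10 genes did not stand out by this measure. In the 3 libraries above 10%, Ldha was at 1682 to 2114 CPM, against 1022 to 1439 CPM in the other 5. Hk2 was at 267 to 286 CPM in these libraries and at 164 to 212 CPM in the rest. Egln3 ran the other way, at 26.7 to 30.3 CPM against 30.4 to 67.4 CPM. Of all genes tested, 23.4% lay apart with higher and 21% with lower levels in the high-share libraries. With the log2 Rn45s share as a covariate, the log2 fold change between the groups was 1.26 for Adm, -0.78 for Car9, -0.30 for Bnip3 and -0.29 for Egln3, each close to its value without it. It was -0.12 in place of -0.18 for Ldha and -0.01 in place of -0.10 for Hk2. Gapdh, a glycolytic enzyme gene often used for scaling and chosen here after its values were seen, was at 117 to 253 CPM in the high-share libraries and at 299 to 581 CPM in the others.

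**Figure D4:**
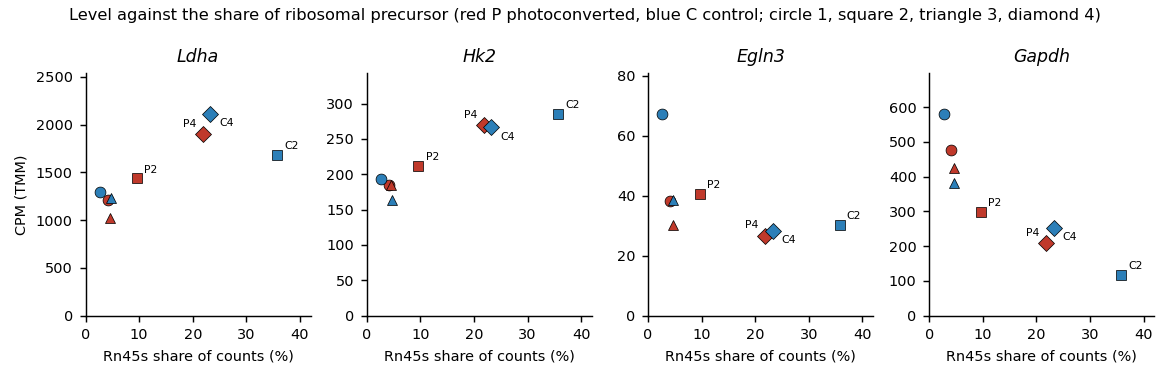
Level in CPM (TMM) of Ldha, Hk2, Egln3 and Gapdh against the share of counts on Rn45s in the 8 tumors (red photoconverted, blue control, a symbol for each replicate number). Ldha and Hk2 are higher and Egln3 and Gapdh lower in the 3 libraries above 10%, of which 1 is photoconverted and 2 are controls, and 44.4% of all genes tested lie apart in this way.

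Within the 5 tumors under a share of 10%, 3 photoconverted and 2 control, the CPM of 3 of the 10 genes lay apart without overlap, as did 28.4% of all genes tested. Adm was at 8.81 to 14.3 CPM in the photoconverted group and 2.70 to 4.88 CPM in control tumors, with a log2 fold change of 1.48 ± 0.32 (SE; adjusted p = 0.176 in edgeR). Car9 was at 18.9 to 33.8 CPM against 35.3 to 84.1 CPM, with a log2 fold change of -1.14 (adjusted p = 0.355 in edgeR). Bnip3 was at 119 to 168 CPM against 178 to 253 CPM, with a log2 fold change of -0.58 (adjusted p = 0.363 in edgeR). Egln3 overlapped, with a log2 fold change of -0.54 in place of -0.28 (adjusted p = 0.463 in edgeR). In this fit 0 of the 10 genes were called, as against 0.275% of all genes. Above 10%, the 1 photoconverted tumor had 2.67 CPM of Adm against 2.50 to 3.21 CPM in the 2 control tumors, and 30.6 CPM of Car9 against 30.7 to 42.9 CPM. These 3 libraries are too few for a test.

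Across the 8 tumors the 10 genes did not vary as one block. The Pearson correlation of log2 CPM had a median of 0.38 over the 45 pairs of genes and ran from -0.74 (Ldha with Adm) to 0.94 (Pgk1 with Ndrg1), with 6 pairs above 0.8 and 12 below 0. Slc2a1, Pgk1 and Ndrg1 were alike (0.88 for Slc2a1 with Pgk1), and Car9 went with Slc2a1 (0.84) and Bnip3 (0.80). Bnip3 and Egln3 correlated at 0.84. Ldha and Hk2 correlated at 0.88, and both ran against Egln3 (-0.45 and -0.55). The tumors share their libraries, depth and composition in all of these values, so they are descriptions with n = 8. The fold between the highest and the lowest tumor was 1.57 for Slc2a1 and 1.58 for Vegfa, the steadiest genes, and 4.46 for Car9 and 5.71 for Adm.

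**Figure D5:**
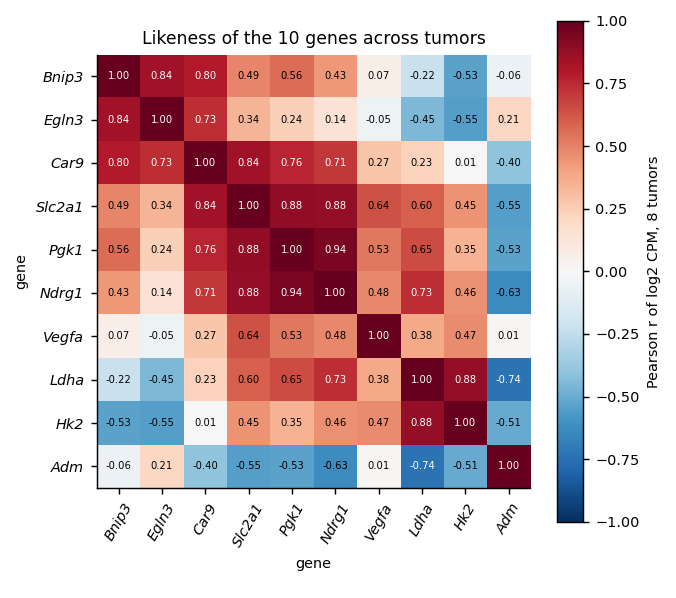
Pearson r of log2 CPM between each pair of the 10 genes over 8 tumors (red above 0, blue below 0). Slc2a1, Pgk1, Ndrg1 and Car9 form a block of high values, Bnip3 and Egln3 join Car9, Ldha and Hk2 go together, and Adm is below 0 with most genes.

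The mean centered log2 CPM of the 10 genes was highest in control tumor 1 (0.36) and lowest in control tumor 3 (-0.19). Of 9749 other genes with a mean of at least 10 CPM, Ddit3, which encodes a stress-induced transcription factor, followed this mean most closely (r = 0.93, 8 tumors). Next were Iws1 (0.91), Ddx50 (0.91), P4ha2 (0.88), Pogk (0.88), Det1 (0.88), Ero1l (0.86), Ift20 (0.86), 4833420G17Rik (0.85) and Higd1a (0.84). P4ha2 (a collagen prolyl hydroxylase), Ero1l (an oxidase of protein folding) and Higd1a (a mitochondrial protein) are themselves HIF targets. Ero1l was at 291, 254, 180.4 and 288 CPM in the photoconverted group and 629, 210.4, 297 and 349 CPM in control tumors. As for Car9, Bnip3 and Egln3, control tumor 1 held the highest value.

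The genes that set HIF activity were measured beside these targets. Of 13 listed, 11 were tested (Hif3a and Cited4 were too low), with 5 above and 6 below 0, 0 called and a median log2 fold change of -0.01. Hif1a, the oxygen-regulated subunit, was at 192 ± 40.1 CPM in the photoconverted group and 160.0 ± 37.2 CPM in control tumors (SD, n = 4; log2 fold change 0.27 ± 0.21 SE). Egln1 (PHD2), the main oxygen sensor, was at 91.6 ± 28.1 CPM against 116 ± 23.4 CPM (log2 fold change -0.34 ± 0.23 SE). Both lay apart by Rn45s share. Hif1a was at 124 to 139 CPM in the 3 high-share libraries, of which 2 are controls, and at 182 to 224 CPM in the others. Egln1 was at 127 to 141 CPM there and at 62.3 to 101 CPM in the others. Of the 11 genes, 4 were higher and 4 lower without overlap in the high-share libraries, as were 23.4% and 21% of all genes tested. The part of this in the group differences of these 11 genes was not tested. Epas1 (HIF-2 alpha) had a log2 fold change of 0.29, Arnt of -0.01 and Vhl of -0.16. HIF activity is set mainly by protein stability, which these RNA levels do not measure.

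The other glycolytic enzymes were all tested, with 4 of 17 above and 13 below 0, 0 called, 0 with an unadjusted p under 0.05 and a median log2 fold change of -0.09. The photoconverted tumor was the lower in 4 of 4 pairs for 5 of them (Pfkl, Pfkp, Pgam1, Eno2 and Pkm). The same held for 7.18% of all genes tested. Pfkl and Pkm also lay apart by Rn45s share, with higher levels in the 3 high-share libraries, of which 2 are controls. So did 23.4% of all genes tested, whereas Pfkp, Pgam1 and Eno2 overlapped. The part of the Rn45s share in the pairs was not tested. Aldoc, an aldolase, was at 7.72 against 10.6 CPM on average (log2 fold change -0.47 ± 0.26 SE). The muscle forms Pgam2 (5.99 against 2.55 CPM) and Eno3 (31.9 against 20.1 CPM) had log2 fold changes of 1.24 and 0.66, and both were highest in photoconverted tumor 3, at 13.5 and 57.4 CPM, where the muscle markers were highest too. Of 14 regulators and transporters, 8 were above and 6 below 0, with 0 called. Pdk4, a kinase that keeps pyruvate out of mitochondria and is abundant in muscle, was at 3.25, 7.36, 9.38 and 0.820 CPM in the photoconverted group and 0.971, 1.39, 2.99 and 1.10 CPM in control tumors (log2 fold change 1.68 ± 0.66 SE, unadjusted p = 0.0317 in edgeR). Pdk1, the kinase of that family best known as a HIF target, was at 79.9 ± 6.38 CPM against 101 ± 20.0 CPM (-0.33 ± 0.15 SE). Pfkfb3, an activator of phosphofructokinase, was at 67.0 ± 7.09 CPM against 57.0 ± 2.96 CPM (0.24 ± 0.11 SE; exact permutation p = 0.0571).

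Of 38 other HIF targets in the count table, 37 were tested, with 15 above and 22 below 0, a median log2 fold change of -0.09 and 0 called. An unadjusted p under 0.05 was found for 2 with a higher level (1.65% of all genes) and 1 with a lower level (0.574% of all genes). Angptl4, a secreted inhibitor of lipoprotein lipase, was at 52.4, 58.0, 58.8 and 22.0 CPM in the photoconverted group and 19.8, 39.7, 24.5 and 22.9 CPM in control tumors. As for Adm, photoconverted tumors 1 to 3 lay above every control tumor and tumor 4 did not. The log2 fold change was 0.85 ± 0.33 over all 8 tumors (SE; unadjusted p = 0.0275 and adjusted p = 0.999 in edgeR). Below 10% of Rn45s it was 1.35 ± 0.13 (SE; 5 tumors, adjusted p = 0.0101 in edgeR). Angptl4 was the 1 listed HIF target called in that fit, in which 0.275% of all genes were called. The fit set 3 tumors against 2. It left out photoconverted tumor 4, which lay inside the control range, and control tumor 2, the highest control. Control tumor 4 was left out too. The adipocyte markers given beside Adm had the same order in the photoconverted group, highest in tumor 3 and lowest in tumor 4, and their part in the Angptl4 values was not tested. Kdm4b, a histone demethylase, was at 46.7 ± 8.65 CPM against 59.6 ± 5.45 CPM (-0.35 ± 0.15 SE; unadjusted p = 0.0402 in edgeR).

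Paralogs of the 10 genes and the receptors of Vegfa and Adm gave 0 calls as well. Of 28 paralogs in the count table, 23 were tested, with 10 above and 13 below 0 and a median of -0.02. Bnip3l, the close relative of Bnip3 with the same role, had a log2 fold change of -0.32 ± 0.23 (SE), and Adm2, the relative of Adm, had -0.39 ± 0.49 (SE), on the other side of 0 from Adm. Slc2a3 (GLUT3) was at 7.05 against 5.52 CPM (0.35 ± 0.20 SE), and Ndrg2 was at 11.0 against 5.09 CPM (1.12 ± 0.59 SE). The 9 receptor genes split into 4 above and 5 below 0. Flt1 and Kdr, the receptors of Vegfa, had log2 fold changes of 0.33 and 0.11. Calcrl, the adrenomedullin receptor, had -0.12, and its partners Ramp2 and Ramp3 had -0.45 and -0.41.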

How the data were processed

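RNA from 8 MC38 tumors, 4 photoconverted and 4 control, was sequenced as stranded total RNA libraries (a TruSeq kit in the methods of the paper, a SMARTER kit in the labels). Unnormalized counts for each gene symbol were deposited by the authors, together with a table of normalized signal values, which equal the counts divided by size factors. The submitters' processing notes name CASAVA, FastQC, Trim Galore, HISAT2, featureCounts, DESeq2 and the build mm10. Versions and the strand setting of counting are not given in the sources used here.

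Raw counts were tested with edgeR 4.0.16 in R 4.3.3 (TMM, filterByExpr by group, quasi-likelihood test, Benjamini-Hochberg adjustment over 14468 genes, threshold 0.05). The test was run on simulated counts with changes larger than any seen among the 10 genes. That check does not show whether differences of the size seen here would be found. Log2 CPM used a prior count of 2. Two-sided exact permutation tests ran over 70 arrangements. Levels were divided by merged GENCODE exon lengths (GRCm38), the source of the gene coordinates. Alternatives were DESeq2 1.42.0, limma 3.58.1 on log2 of the normalized values plus 1, other scaling and filters, Rn45s and muscle covariates, a fit of the 5 tumors below 10% of Rn45s, the replicate block and each tumor left out. Total counts of 12576615 to 35844417 set the precision, which is low for Adm.

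Replicate numbers come from the sample titles. Deviations from the group means correlated, across genes, at 0.107 to 0.623 for same-numbered tumors (mean 0.433). For tumors of different number they correlated at -0.600 to 0.482 (mean -0.134), so the ranges overlapped. The titles do not state a pairing. The numbers were used as pairs only for description and in the replicate block. No 2 libraries of a group agreed within sampling noise (smallest chi-square per degree of freedom 23.8). The design text counts 4 mice in each group. The 10 genes and all lists were chosen with earlier results of these data known. Beside them, tested HIF system, paralog and receptor genes could be named, the 3 genes of lowest p in each other list, and the 10 genes most like the mean of the 10. Pfkl, Pfkp, Pgam1, Eno2, Pkm and Gapdh were named after their values were seen. 1 gene that the rule would name is not reported here. Single-cell and flow cytometry data were not analysed here.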

Additional observations from a re-analysis of the deposited data

How the results depend on the processing

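Over the 170 values of the 10 genes under the alternatives, 0 were called, 157 kept their direction and 13 turned, and the smallest adjusted p was 0.141 in edgeR (Adm without photoconverted tumor 4). The number of all genes called moved from 0 to 24 with DESeq2 and to 42 in the 5 tumors below 10% of Rn45s, and leaving out each tumor gave 0 to 11, the 11 without photoconverted tumor 4. With the replicate block, Vegfa was at 0.0052 (log2), no call changed, and 869 genes in place of 322 had an unadjusted p under 0.05. Vegfa was also at 0.0077 with limma, 0.051 in the 5 tumors and 0.057 with the muscle covariate, and at -0.13 to 0.072 leaving out each tumor, including 0.032 without photoconverted tumor 2, 0.048 without control tumor 1 and 0.072 without control tumor 4. The muscle covariate turned Pgk1 (0.014), Ldha (0.060) and Hk2 (0.053), and the 5 tumors turned Hk2 (0.12). Leaving out each tumor gave -0.23 to 0.033 for Hk2 (0.033 without control tumor 2) and -0.42 to 0.0675 for Egln3 (0.0675 without control tumor 1). The cause of these turns was not tested. The number of the 10 genes without overlap was 0 to 1 leaving out each tumor. It was 1 (Car9) without photoconverted tumor 2 or control tumor 2, and 1 (Adm) without photoconverted tumor 4. Without photoconverted tumor 2, Car9 lay apart only by 30.6 CPM in photoconverted tumor 4 against 30.7 CPM in control tumor 2. The share of all genes without overlap is not given for these settings, and the 1.33% holds for 4 against 4 tumors only. These counts are therefore not read as a result about Car9 or Adm. Of the other HIF targets, 1 (Angptl4) was called in the 5 tumors. Few counts limit Adm, with 30 in control tumor 2.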
